A study of Mus musculus with 4 samples.

Results

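The ribosome biogenesis and nucleolar genes followed here are 42 genes chosen by name, of 35275 genes in the deposited table, and all 42 were found and passed the filters on low counts. They were measured by sequencing of total RNA. By their labels the cells were splenic T cells from C57BL/6 mice, stimulated for 3 days through CD3 and CD28 with IL-2 added. The 4 groups were Cers6 knockout at 8 months, Cers6 knockout at 2 months, wild type at 8 months and wild type at 2 months of age. Cers6 is ceramide synthase 6, an enzyme that joins a fatty acyl chain to a sphingoid base to make ceramide. Every group shared the strain, the stimulation and the culture time, and each had 1 library, so no difference has a replicate check. Duplicates are mentioned in the series text, but how many mice gave each library and how the knockout was made are not in the labels. Libraries held 20342672 and 18145555 counts in knockout at 8 and 2 months, against 21886108 and 24239344 counts in wild type at 8 and 2 months.

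A ribosome is assembled in the nucleolus, where RNA polymerase I transcribes one long precursor of most ribosomal RNA. Small nucleolar RNAs in box C/D and box H/ACA particles guide methylation and pseudouridylation of that precursor, and separate sets of factors fold, cut and export the small and the large subunit. Resting T cells make few ribosomes, and stimulation through the T cell receptor raises MYC, nucleolar size and ribosome output before division. The 42 genes were grouped by role into MYC, RNA polymerase I (3 genes), nucleolar hub proteins (6), the box C/D proteins (3), the box H/ACA proteins (3), nucleolar factors of the small subunit (9), late and export factors of the small subunit (5) and factors of the large subunit (12). They lie on 17 chromosomes, and 7 of them hold 21 small nucleolar RNA genes within their bounds, from 1 in Dkc1 to 5 in Nop56.

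The promoters are shown because MYC is the factor best known for driving these genes through the E-box CACGTG, and because most of the genes moved together. RefSeq (GRCm38.p6) gave a window from 250 bases before to 50 bases after the start for 36 of the 42 genes, with none for Bop1, Fbl, Myc, Npm1, Rrp12 and Rrs1. CACGTG, which reads the same on both strands, lay in 8 of the 36 windows, which is 22.2%, against 8.09% of the windows of all 27025 genes in that table and 12% of those of the genes measured here at 2 CPM or more. In the 250 bases before the start it was in 1 of 36, or 2.78%, against 6.86% of all genes and 10.1% of the measured ones. All sites but that of Nop2 therefore began within the first 50 bases of the transcript, from 3 bases after the start in Pes1 to 41 bases after it in Mybbp1a, and that of Nop2 began 60 bases before the start. The sites are printed with up to 10 bases on either side, with the E-box in capitals.
Grwd1, chr7:45830740-45830765, minus strand: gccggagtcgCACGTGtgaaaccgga
Ltv1, chr10:13193094-13193119, minus strand: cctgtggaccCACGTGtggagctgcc
Mybbp1a, chr11:72441357-72441376, plus strand: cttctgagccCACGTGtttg
Nop2, chr6:125131813-125131838, plus strand: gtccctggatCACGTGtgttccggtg
Pes1, chr11:3963967-3963992, plus strand: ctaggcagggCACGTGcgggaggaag
Tsr1, chr11:74898094-74898119, plus strand: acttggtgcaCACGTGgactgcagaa
Utp20, chr10:88826765-88826787, minus strand: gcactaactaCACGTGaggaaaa
Wdr43, chr17:71616222-71616247, plus strand: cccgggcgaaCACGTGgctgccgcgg

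CCGGAAG, a core read by ETS factors, was searched on both strands and by its letters cannot overlap the E-box. It was found in the 250 bases before the start in 10 of 36 genes, which is 27.8%, against 7.83% of all genes and 16.7% of the measured ones. The 250 bases are given for Grwd1, which had the lowest knockout over wild type ratio at 8 months, for Tsr1, which had the highest, and for Ncl, an abundant member. Capitals mark the single CCGGAAG among them, 39 bases before the Grwd1 start.
Grwd1, chr7:45830790-45831039, minus strand: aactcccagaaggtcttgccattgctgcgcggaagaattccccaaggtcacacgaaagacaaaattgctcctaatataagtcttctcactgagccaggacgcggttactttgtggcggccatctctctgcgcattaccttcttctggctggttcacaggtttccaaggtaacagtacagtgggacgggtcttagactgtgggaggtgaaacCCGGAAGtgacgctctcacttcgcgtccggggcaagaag
Tsr1, chr11:74897830-74898079, plus strand: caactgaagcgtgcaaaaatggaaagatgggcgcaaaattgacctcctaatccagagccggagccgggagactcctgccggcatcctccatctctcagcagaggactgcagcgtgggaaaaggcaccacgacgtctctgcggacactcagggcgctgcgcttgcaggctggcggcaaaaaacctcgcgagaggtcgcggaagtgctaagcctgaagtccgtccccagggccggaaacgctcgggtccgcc
Ncl, chr1:86359456-86359705, minus strand: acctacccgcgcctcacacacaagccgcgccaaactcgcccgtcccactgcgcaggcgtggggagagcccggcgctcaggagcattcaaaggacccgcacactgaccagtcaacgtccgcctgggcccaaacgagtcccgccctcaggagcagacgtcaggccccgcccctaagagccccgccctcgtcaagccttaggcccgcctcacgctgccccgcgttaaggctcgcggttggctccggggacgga
The RefSeq start can differ from the gene bounds of the deposited table. A match is a description of the letters and not a measured binding site.

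The 42 genes were low together in 1 library, that of knockout at 8 months. They took 0.376% of its counts (95% interval 0.373 to 0.378), against 0.524% in knockout at 2 months and 0.523% and 0.511% in wild type at 8 and 2 months. Npm1 and Ncl alone took 0.199% and 0.305% of the counts in knockout at 8 and 2 months, against 0.279% and 0.286% in wild type at 8 and 2 months. After scaling between libraries the 42 genes summed to 3292 and 5508 CPM in knockout at 8 and 2 months, against 5424 and 5345 CPM in wild type at 8 and 2 months. CPM is the read count relative to library size after scaling by TMM, a factor for library composition, and all intervals given are exact 95% intervals for counting error only. Knockout at 8 months was the lowest library for 38 of 42 genes, against 37.7% of the 12131 genes that reached 2 CPM in any library and 46.6% of the genes as well expressed as these. Knockout at 2 months was lowest for Bysl (against 21.2% of all genes), wild type at 8 months for Polr1a and Tsr1 (24.2%), and wild type at 2 months for Ddx21 (16.9%).

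**Figure D1:**
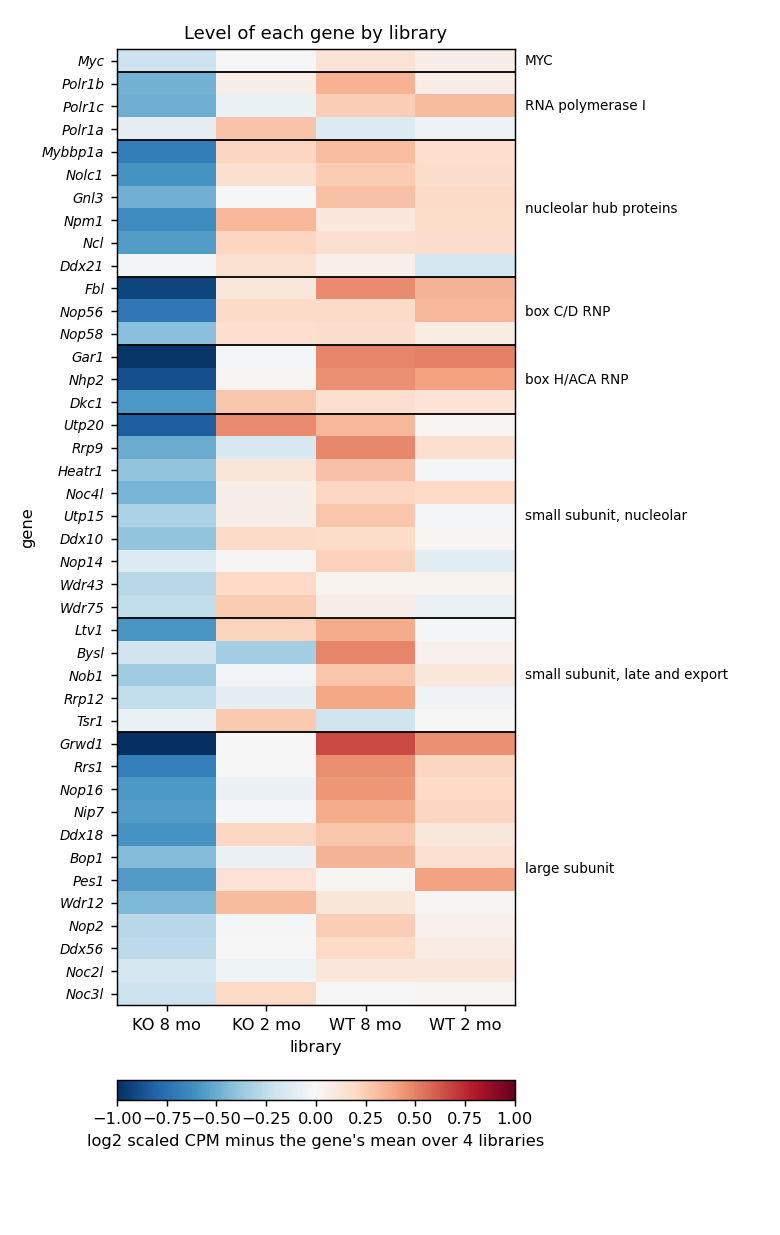
Level of each of the 42 genes (rows, grouped by role) in the 4 libraries (columns), as the log2 of scaled CPM minus the mean of that gene over the 4 libraries. Blue is below and red above the gene's own mean, and the colour stops at 1 on either side. The column of knockout at 8 months is the lowest in 38 of the 42 rows.

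At 8 months the knockout over wild type log2 fold had a median of -0.71 over the 42 genes, against 0.00 over all genes, and ran from -1.76 to 0.13. It was below 0 for 40 of 42, against 50.2% of all genes, and its counting interval lay below 0 for 39, against 40.4%. At least 2-fold lower were 8 of 42, against 6.46% of all genes: Grwd1, Gar1, Fbl, Nhp2, Utp20, Rrs1, Nop16 and Mybbp1a. None was at least 2-fold higher, against 10.4% of all genes. The genes are well expressed, and over the 8111 genes at or above the lowest of their mean levels, 14.1 CPM, the median was -0.10, with 57.0% below 0 and 5.34% at least 2-fold lower. The count of 40 below 0 was the same with median-of-ratios and with upper-quartile scaling. With library size alone 38 were below 0, Ddx21 and Noc3l joining Polr1a and Tsr1 above it, and as the median of all genes then stood at 0.24, 40 of 42 lay below that median.

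At 2 months the same ratio had a median of -0.03 over the 42 genes and of 0.00 over all genes, and ran from -0.52 in Gar1 to 0.46 in Utp20. It was below 0 for 23 of 42, against 49.8% of all genes. The counting interval lay below 0 for 16, against 25.5%, and above 0 for 13, against 28.0%. For 11 genes the interval lay below 0 at 8 months and above 0 at 2 months, against 7.9% of all genes. None was past 2-fold at 2 months, against 2.04% of all genes at least 2-fold lower and 0.989% at least 2-fold higher. Whether the ratios at 8 and at 2 months differ beyond the spread between mice could not be tested with 1 library in a group.

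**Figure D2:**
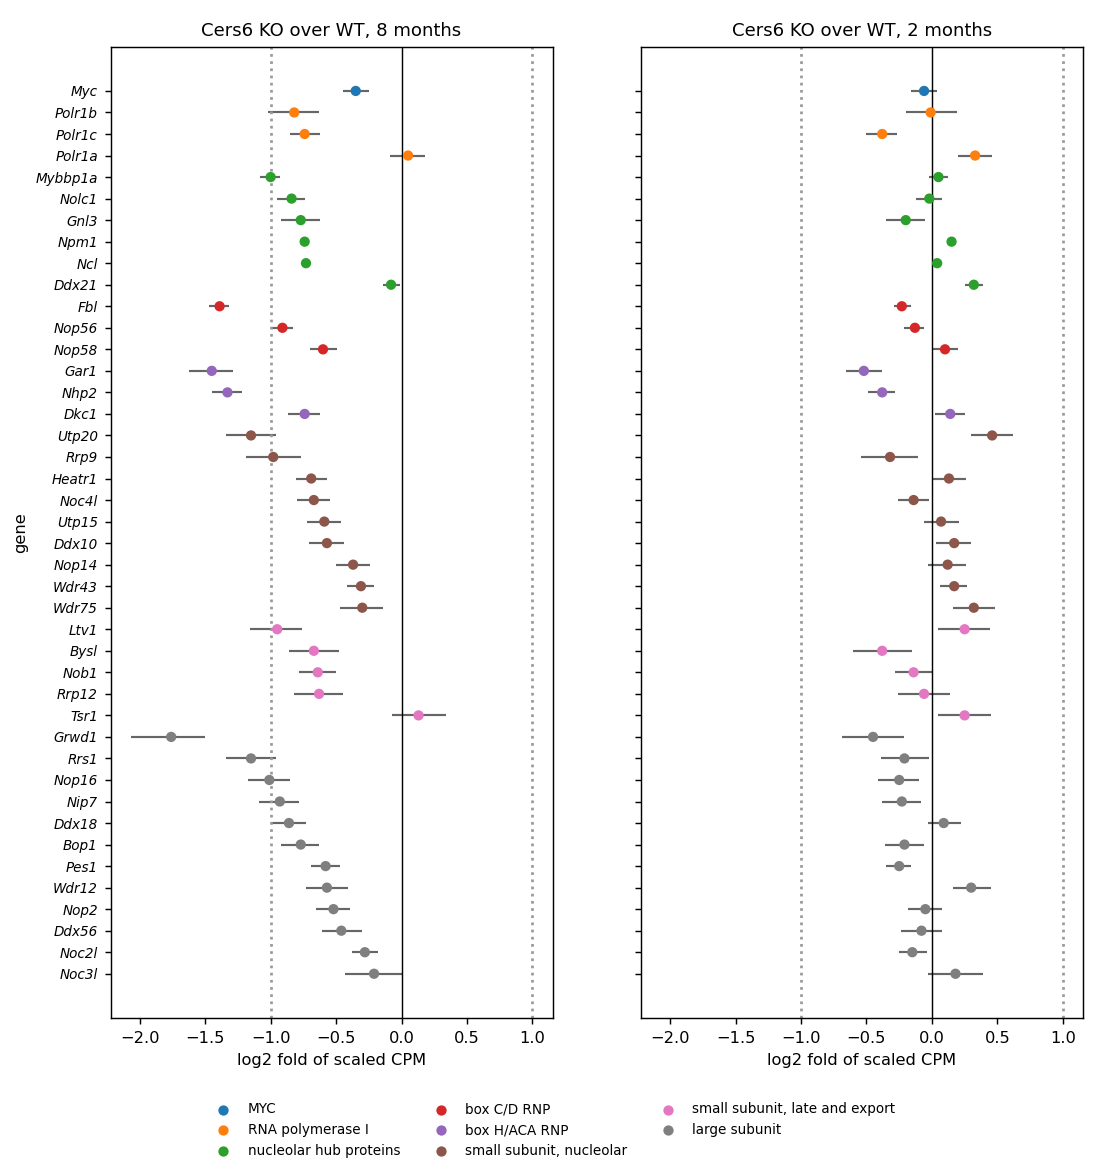
Log2 fold of scaled CPM, Cers6 knockout over wild type, for each gene (rows, coloured by role) at 8 months (left) and 2 months (right). Points are single-library ratios, bars are exact 95% counting intervals, and dotted lines mark 2-fold. At 8 months 39 bars lie wholly below 0, and at 2 months 16 lie below and 13 above.

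The deleted gene was read in each library as a check of the labels. Cers6 measured 3.40 CPM in knockout at 8 months and 9.16 CPM in knockout at 2 months, against 32.1 and 13 CPM in wild type at 8 and 2 months. It was lower in knockout at both ages, by far the less so at 2 months, where the log2 fold was -0.50 against -3.20 at 8 months. The wild-type libraries differed from each other by more than that (log2 fold 1.30, 8 over 2 months), so Cers6 does not settle the label of the 2-month knockout. The removed part of the gene, not given in the sources used here, can lie outside much of the transcript that was counted.

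The proteins of the guide RNA particles had the lowest ratios of any role, with a median log2 fold of -1.33 for box H/ACA and of -0.91 for box C/D at 8 months. Each is a median of 3 genes. With the trend of all genes on length and GC share taken off, these medians were -1.06 and -1.12, in the other order. Gar1, a core protein of the box H/ACA particle (ENSMUSG00000028010, GRCm38 chromosome 3, 129824912 to 129831396), measured 18.4 and 35.8 CPM in knockout at 8 and 2 months, against 50.6 and 51.2 CPM in wild type at 8 and 2 months. Both knockout libraries were below both wild-type libraries, with a log2 fold at 8 months of -1.45 (-1.62 to -1.29) and at 2 months of -0.52 (-0.66 to -0.38). Nhp2, another core protein of that particle (ENSMUSG00000001056, chromosome 11, 51619735 to 51623714), measured 39.5 and 73.4 CPM in knockout at 8 and 2 months, against 99.6 and 95.9 CPM in wild type at 8 and 2 months. It had the same order as Gar1, with a log2 fold at 8 months of -1.33 and at 2 months of -0.38. With the trend of all genes on length and GC share taken off, Gar1 and Nhp2 had -0.25 and -0.13 at 2 months. Dkc1, the pseudouridine synthase of the particle and of telomerase, measured 35.5 and 64.0 CPM in knockout at 8 and 2 months, against 59.5 and 58.3 CPM in wild type at 8 and 2 months. Here the knockout library of 2 months was the highest of the 4 (log2 fold 0.14) and that of 8 months the lowest (-0.74), so the particle's proteins did not share one pattern at 2 months.

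Fibrillarin, the methyltransferase of the box C/D particle and the nucleolar marker most used in microscopy, was the second most abundant of the genes per length. Fbl (ENSMUSG00000046865, chromosome 7, 28169748 to 28179269) measured 93.0 and 189.8 CPM in knockout at 8 and 2 months, against 244.2 and 222.3 CPM in wild type at 8 and 2 months. At 8 months its log2 fold was -1.39 (-1.47 to -1.32), and at 2 months -0.23 (-0.29 to -0.16). The 2-month fold was -0.01 with the trend on length and GC share taken off. The scaffold gene Nop56 (chromosome 2, 130274430 to 130279313) measured 76.6 and 143.9 CPM in knockout at 8 and 2 months, against 144.0 and 158.0 CPM in wild type at 8 and 2 months. Its partner Nop58 measured 56.5 and 84.7 CPM in knockout at 8 and 2 months, against 85.4 and 79.3 CPM in wild type at 8 and 2 months. For both scaffolds the knockout library of 8 months stood apart below 3 libraries that lay close together. The log2 folds of Nop56 and Nop58 at 8 months were -0.91 and -0.60. Nop56 and Nop58 are also hosts of 5 and 4 of the small nucleolar RNA genes.

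The nucleolar hub proteins, abundant factors that organise the nucleolus, had at 8 months a median log2 fold of -0.75, and at 2 months one of 0.05. Npm1, nucleophosmin, a chaperone that forms the outer layer of the nucleolus (ENSMUSG00000057113, chromosome 11, 33152287 to 33163206), was the most abundant of the 42 genes per length, with a mean of 912.0 FPKM. It measured 947.4 and 1848 CPM in knockout at 8 and 2 months, against 1581 and 1668 CPM in wild type at 8 and 2 months. Knockout at 8 months was lowest and knockout at 2 months highest, with log2 folds of -0.74 (-0.76 to -0.71) and 0.15 (0.13 to 0.17). Npm1 has processed copies in the mouse genome, and the handling of reads shared with them, not given in the sources used here, can affect its values. Ncl, nucleolin, which binds precursor ribosomal RNA (ENSMUSG00000026234, chromosome 1, 86344719 to 86359400), measured 794.9 and 1361 CPM in knockout at 8 and 2 months, against 1319 and 1320 CPM in wild type at 8 and 2 months. The wild-type libraries differed by less than counting error, and at 8 months the log2 fold was -0.73, and at 2 months 0.04, the last being -0.01 with upper-quartile scaling and -0.28 with the trend of all genes on length and GC share taken off.

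Mybbp1a, which binds MYB and sits in the nucleolus, measured 94.7 and 177.5 CPM in knockout at 8 and 2 months, against 189.7 and 171.6 CPM in wild type at 8 and 2 months. Nolc1, a chaperone of guide RNA particles, measured 48.4 and 81.5 CPM in knockout at 8 and 2 months, against 87.0 and 82.5 CPM in wild type at 8 and 2 months. Both had 3 libraries close together and 1 low one, with log2 folds at 8 months of -1.0 and -0.84. Gnl3, nucleostemin, a GTP-binding protein of dividing cells, had -0.77 at 8 months and -0.20 at 2 months. Ddx21, an RNA helicase that binds RNA polymerase I and II genes, went another way. It measured 158.2 and 178.4 CPM in knockout at 8 and 2 months, against 166.7 and 142.6 CPM in wild type at 8 and 2 months. Its log2 fold was -0.08 (-0.14 to -0.01) at 8 months, 0.17 with library size alone, and 0.32 (0.25 to 0.39) at 2 months.

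Myc itself, the transcription factor that drives ribosome production after T cell stimulation (ENSMUSG00000022346, chromosome 15, 61985341 to 61990374), differed less than most of the other genes. It measured 66.5 and 77.0 CPM in knockout at 8 and 2 months, against 85.0 and 80.3 CPM in wild type at 8 and 2 months. At 8 months the log2 fold was -0.35 (-0.45 to -0.25), and at 2 months -0.06 (-0.16 to 0.04), so at 2 months it was within counting error of 0. The 8 genes with CACGTG in the promoter window had a median of -0.77 at 8 months, against -0.68 for the 28 without it, and the 8 ran from -1.76 in Grwd1 to 0.13 in Tsr1, the whole range of the 42.

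The RNA polymerase I subunits differed in their ratios. Polr1a, the largest subunit (ENSMUSG00000049553, chromosome 6, 71909053 to 71979356), measured 42.1 and 54.5 CPM in knockout at 8 and 2 months, against 40.8 and 43.2 CPM in wild type at 8 and 2 months. It was not lower in knockout, with a log2 fold at 8 months of 0.05 (-0.09 to 0.18) and at 2 months of 0.33 (0.20 to 0.46). With the trend on length and GC share taken off, its fold at 8 months was -0.25, below 0 like those of the other subunits. Polr1b, the second-largest subunit, measured 15 and 21.7 CPM in knockout at 8 and 2 months, against 26.5 and 21.8 CPM in wild type at 8 and 2 months. Polr1c, which RNA polymerase III also uses, measured 44.6 and 59.8 CPM in knockout at 8 and 2 months, against 74.3 and 78.1 CPM in wild type at 8 and 2 months. Both had lower values in knockout at 8 months (log2 folds -0.82 and -0.74), and at 2 months Polr1c was lower (-0.38) while Polr1b was level (-0.01). With the trend taken off, Polr1c had -0.16 at 2 months.

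The nucleolar factors of the small subunit belong to the processome, the large particle that forms on the nascent precursor. All 9 had a log2 fold below 0 at 8 months, from -1.15 to -0.30 with a median of -0.59. At 2 months 7 of 9 were above 0, with a median of 0.13. These medians were -0.66 and 0.07 with the trend on length and GC share taken off. Utp20 (ENSMUSG00000004356, chromosome 10, 88746607 to 88826814), a long scaffold protein of that particle, showed the widest contrast. It measured 14.8 and 36.4 CPM in knockout at 8 and 2 months, against 32.9 and 26.5 CPM in wild type at 8 and 2 months. The knockout library of 2 months was the highest and that of 8 months the lowest, with log2 folds of 0.46 (0.30 to 0.62) and -1.15 (-1.34 to -0.96). With that trend taken off, the folds of Utp20 were 0.18 at 2 months and -1.59 at 8 months. Rrp9, a protein of the U3 guide particle, measured 12.9 and 16.4 CPM in knockout at 8 and 2 months, against 25.4 and 20.5 CPM in wild type at 8 and 2 months, and was lower in both knockout libraries than in both wild-type ones. Its log2 fold at 2 months was -0.32, or -0.05 with the trend on length and GC share taken off.

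Heatr1, Utp15, Wdr43 and Wdr75, which belong to the complex that links the processome to transcription of ribosomal RNA, had log2 folds of -0.69, -0.59, -0.31 and -0.30 at 8 months. At 2 months the same 4 had 0.13, 0.07, 0.17 and 0.32, of which the values of Heatr1 and Utp15 were -0.08 and -0.03 with the trend on length and GC share taken off. The helicase gene Ddx10, and Nop14 and Noc4l, which encode binding partners within the particle, had -0.57, -0.37 and -0.67 at 8 months, against 0.17, 0.12 and -0.14 at 2 months.

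The late factors carry the pre-40S particle through export and final cutting. Ltv1, an export adaptor (chromosome 10, 13178640 to 13193137), measured 14.0 and 24.5 CPM in knockout at 8 and 2 months, against 27.1 and 20.7 CPM in wild type at 8 and 2 months. It had a log2 fold at 8 months of -0.95 (-1.16 to -0.76) and at 2 months of 0.25 (0.05 to 0.44). Nob1, the nuclease that trims the end of 18S RNA, had -0.64 and -0.14, and Rrp12, an export factor, had -0.63 and -0.06. Bysl, a factor of pre-40S assembly, measured 16.6 and 15 CPM in knockout at 8 and 2 months. In wild type at 8 and 2 months it measured 26.5 and 19.5 CPM. It was thus low in both knockout libraries and high in wild type at 8 months.

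Tsr1, a GTPase-like protein that keeps the pre-40S particle from early initiation (ENSMUSG00000038335, chromosome 11, 74898071 to 74909342), had the highest ratio of all at 8 months. It measured 18.4 and 23.0 CPM in knockout at 8 and 2 months, against 16.7 and 19.3 CPM in wild type at 8 and 2 months. Both knockout libraries were above the wild-type library of the same age, with log2 folds of 0.13 (-0.07 to 0.34) at 8 months, within counting error of 0, and 0.25 (0.05 to 0.45) at 2 months. The 2-month interval excluded 0 by a small margin.

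All 12 factors of the large subunit had a log2 fold below 0 at 8 months, with a median of -0.67, and 9 of 12 at 2 months, with a median of -0.18. These medians were -0.78 and -0.02 with the trend on length and GC share taken off. Grwd1, whose yeast counterpart is a chaperone of a ribosomal protein of the large subunit (ENSMUSG00000053801, chromosome 7, 45825227 to 45830944), measured 5.86 and 12.8 CPM in knockout at 8 and 2 months, against 20.1 and 17.5 CPM in wild type at 8 and 2 months. It was lower in both knockout libraries, with a log2 fold at 8 months of -1.76 (-2.07 to -1.50) and at 2 months of -0.45 (-0.69 to -0.21). The 2-month fold of Grwd1 was -0.23 with that trend taken off. Rrs1, known in yeast for bringing in the 5S particle, measured 14.5 and 23.4 CPM in knockout at 8 and 2 months, against 32.1 and 27.0 CPM in wild type at 8 and 2 months. Nop16 measured 21.9 and 31.4 CPM in knockout at 8 and 2 months, against 44.1 and 37.4 CPM in wild type at 8 and 2 months. For both genes each knockout library lay below each wild-type library. Their log2 folds at 2 months were -0.21 and -0.25, or -0.03 and -0.10 with the trend on length and GC share taken off.

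Pes1, Bop1 and Wdr12 form a complex needed to process the precursor of the large subunit. Their log2 folds at 8 months were -0.58, -0.77 and -0.57, while at 2 months Pes1 and Bop1 had -0.25 and -0.21 and Wdr12, the longest of the 42 genes, had 0.30. With the trend on length and GC share taken off they were -0.54, -0.81 and -1.13 at 8 months and -0.20, -0.01 and -0.08 at 2 months, so the contrast of Wdr12 at 2 months was not kept. Pes1 measured 50.6 and 82.9 CPM in knockout at 8 and 2 months, against 75.6 and 98.9 CPM in wild type at 8 and 2 months, and was lower at 8 months in both genotypes. Among the other factors, Nip7 had -0.93 and Ddx18, a helicase, -0.86 at 8 months. Nop2, a methyltransferase of 28S RNA, had -0.52 and the helicase Ddx56 -0.46. The paired nucleolar proteins Noc2l and Noc3l were nearest to 0, at -0.28 and -0.21, and the interval of Noc3l reached 0.

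None of the 42 genes passed the additive test of genotype across both ages, in which the ages stand in for replicates. The test called 1 gene as higher and 3 as lower of 13906, or 0.00719% and 0.0216% (edgeR quasi-likelihood, Benjamini-Hochberg adjusted p under 0.05). At an unadjusted p under 0.05 there were 9 of 42, all with lower fitted values: Fbl, Gar1, Grwd1, Nhp2, Nip7, Nop16, Polr1c, Rrp9 and Rrs1, against 8.36% of all genes. DESeq2 and limma-voom called 0 of the 42 as well, with 5 and 9 at an unadjusted p under 0.05, against 5.94% and 9.79% of all genes. Gar1 came nearest, with a log2 effect of -0.99 (SE 0.28, edgeR adjusted p = 0.419), and with no filter on low counts it passed as the 1 gene of the 42 (edgeR adjusted p = 0.0459), against 0.274% of all genes then tested. Without the library of knockout at 2 months, in a fit of genotype alone, 6 passed as lower: Fbl, Gar1, Grwd1, Mybbp1a, Nhp2 and Nop56 (edgeR adjusted p from 0.0495 to just under 0.05), against 2.16% of all genes. In that fit the knockout arm is the 1 library of 8 months, assumed to vary like the pair of wild-type libraries, so these calls restate how low that library was. The model leaves 1 residual degree of freedom, and a genotype difference that is unequal at the 2 ages counts in it as spread. In the authors' deposited table, Grwd1 was the 1 member marked for knockout over wild type at 8 months (authors' log2 fold -1.78, authors' adjusted p = 0.00391), against 2.77% of the genes with a count. The authors' deposited table marked 0 members at 2 months, against 0.0233%.

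With age, the 42 genes were lower at 8 than at 2 months in knockout and slightly higher in wild type. These comparisons share libraries with those of genotype above, so they are the same 4 values read another way. In knockout the 8 over 2 month log2 fold had a median of -0.52, with 41 of 42 below 0, against 51.9% of all genes. The counting interval lay below 0 for 40, against 39.8%, and Fbl, Grwd1 and Utp20 were at least 2-fold lower (-1.03, -1.12 and -1.29), against 4.58% of all genes. Among the 8111 genes as well expressed as these, 62.3% were below 0 and 4.62% at least 2-fold lower. With library size alone 35 were below 0 and 41 below the median of all genes, which then stood at 0.23. Bysl was the 1 gene above 0, at 0.15. In wild type the median was 0.13, with 9 of 42 below 0, against 49.8%. Intervals lay above 0 for 21, against 25.7%, and below 0 for Nop56, Npm1, Pes1 and Tsr1, against 26.0%, and none was past 2-fold, against 2.67% of all genes at least 2-fold lower and 3.36% at least 2-fold higher. For 19 genes the interval lay below 0 in knockout and above 0 in wild type, against 8.75%. The additive test of age called 0 of 42, against 0.194% of all genes as higher and 0.036% as lower, and 1 (Pes1) had an unadjusted p under 0.05, against 8.22% (edgeR quasi-likelihood). DESeq2 and limma-voom called 0 as well, with 1 each at an unadjusted p under 0.05, against 5.84% and 9.13% of all genes. Without the library of wild type at 8 months, in a fit of age alone, 20 passed as lower, against 11.8% of all genes. The 8-month arm is then the 1 knockout library, in which age and genotype cannot be told apart. The authors' deposited table held no mark on the 42 genes with age in either genotype, against 1.45% of genes in knockout and 1.07% in wild type.

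**Figure D3:**
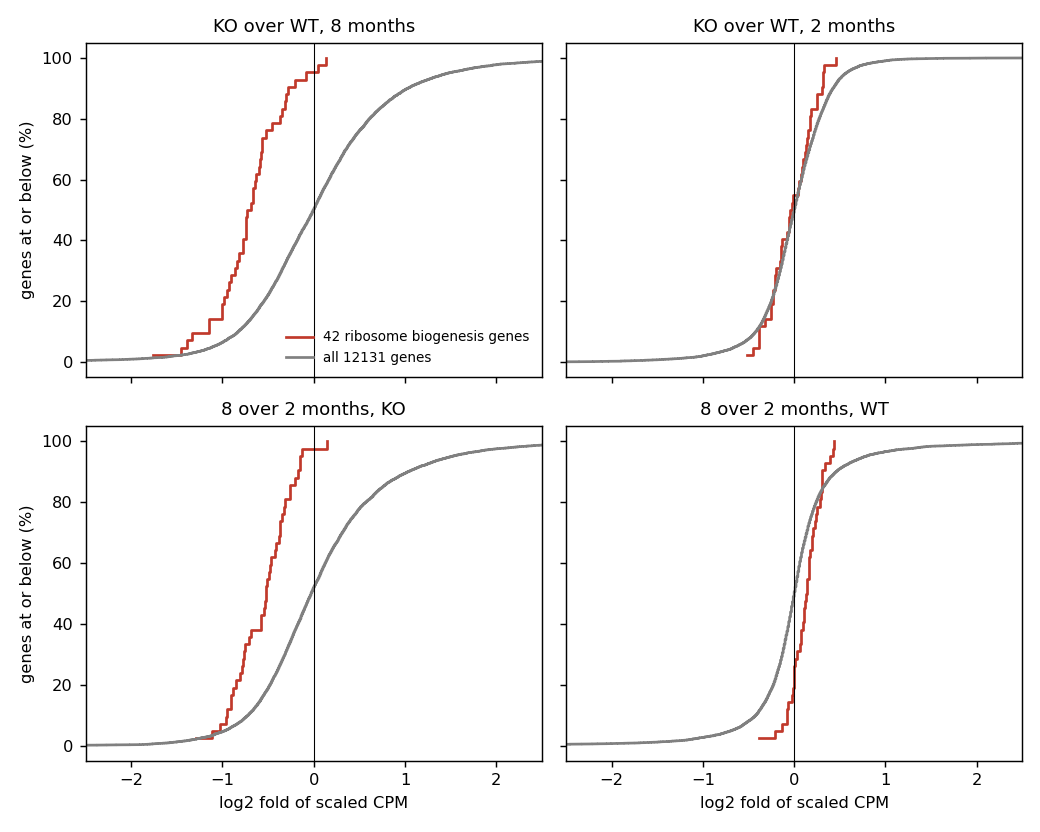
Cumulative share of genes (y axis, percent) at or below each log2 fold of scaled CPM (x axis) for the 42 genes (red) and all 12131 genes (grey), in the 4 comparisons of single libraries. The red line lies left of the grey for knockout over wild type at 8 months (medians -0.71 and 0.00) and for 8 over 2 months in knockout, close to it at 2 months, and to its right for 8 over 2 months in wild type.

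Other factors of the pathway also had low values in the knockout library of 8 months. Of 106 genes in 4 further lists (RNA polymerase I, small subunit, large subunit, and guide particle assembly), 93 were below 0 for knockout over wild type at 8 months, with a median of -0.45, and 13 were at least 2-fold lower. Over all genes these shares were 50.2% and 6.46%. For 82 of the 106 the library of knockout at 8 months was the lowest, against 37.7% of all genes. At 2 months their median was -0.07. None of the 106 passed the additive test for genotype or age (edgeR quasi-likelihood). At an unadjusted p under 0.05 there were 15 and 1, against 8.36% and 8.22% of all genes in that edgeR test. DESeq2 and limma-voom called 0 of them too, with 11 and 16 at an unadjusted p under 0.05 for genotype and 0 and 0 for age. Over all genes the DESeq2 and limma-voom shares were 5.94% and 9.79% for genotype and 5.84% and 9.13% for age. With library size alone 69 of the 106 were below 0 (median -0.21), against a median of 0.24 for all genes. The guide particle assembly genes had 11 of 11 below 0 and a median of -0.73, with Pih1d1, of the R2TP assembly complex, at -1.39 and Nufip1, another assembly factor, at -0.32. The other small subunit factors had 34 of 37 below 0 (median -0.42), from Pwp2 at -1.83 to Dimt1 at 0.48, and the other large subunit factors 39 of 46 (median -0.48), from Rrp15 at -2.19 to Nvl at 0.58. With library size alone these 2 lists had 25 of 37 and 28 of 46 below 0 (medians -0.17 and -0.24). Rrp15 measured 4.57 and 17.8 CPM in knockout at 8 and 2 months, against 21.1 and 20.1 CPM in wild type at 8 and 2 months.

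The other RNA polymerase I genes had 9 of 12 below 0 (median -0.21, or 0.03 with library size alone). Of all genes 50.2% were below 0. Ubtf, the factor that holds ribosomal DNA in an open state, measured 91.7 and 144.2 CPM in knockout at 8 and 2 months, against 246.1 and 161.5 CPM in wild type at 8 and 2 months. Its log2 fold was -1.42 at 8 months, while Ttf1, which ends transcription of the precursor, had 0.41. The exosome, which trims precursor RNA, had 13 of 13 genes below 0 and a median of -0.79, from Exosc3 at -1.14 to Exosc4 at -0.04. With library size alone 9 of the 13 were below 0, with a median of -0.55. The RNA polymerase III and 5S genes had 13 of 21 below 0 and a median of -0.14, or 0.10 with library size alone, and the highest was Polr3gl at 0.66. The Gas5 and Snhg genes, noncoding hosts of small nucleolar RNAs, had 6 of 7 below 0 and a median of -0.32, from Snhg12 at -0.76 to Snhg5 at 0.07. With library size alone 5 of these 7 were below 0 (median -0.08).

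**Figure D4:**
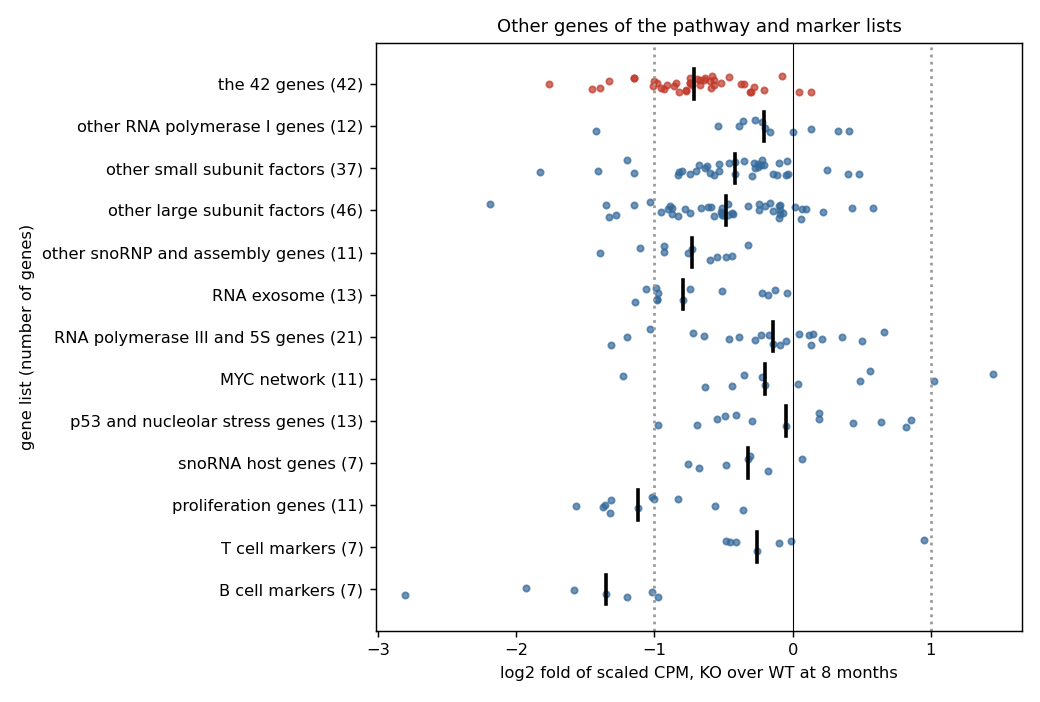
Log2 fold of scaled CPM, knockout over wild type at 8 months (x axis), of each gene in the 42 (red) and in further lists (blue), with the number of genes measured in brackets and the median as a bar. Dotted lines mark 2-fold. The 42 genes have a median of -0.71, the exosome list -0.79 and the proliferation list -1.12.

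Markers of division and of other cells moved beside these genes, and their part in the result was not tested. Of 11 proliferation genes, 11 were lower in knockout at 8 months (median -1.12) and 0 at 2 months (median 0.07). They summed to 1812 and 4897 CPM in knockout at 8 and 2 months, against 3396 and 4113 CPM in wild type at 8 and 2 months, so the library low in the 42 genes was also the lowest in these. Of the T cell markers 6 of 7 were lower at 8 months (median -0.26), or 4 of 7 with library size alone (median -0.01). Scaled, they had sums of 1521 and 1993 CPM in knockout at 8 and 2 months, against 1764 and 2034 CPM in wild type at 8 and 2 months. Cd3e was at 234.2 and 346.0 CPM in knockout at 8 and 2 months, against 325.7 and 341.5 CPM in wild type at 8 and 2 months. B cell markers were present in every library and 7 of 7 were lower (median -1.35), with sums of 1220 and 1918 CPM in knockout at 8 and 2 months, against 3267 and 2208 CPM in wild type at 8 and 2 months. Per length, the B cell markers summed to 685.6 and 959.7 FPKM in knockout at 8 and 2 months, against 1675 and 1143 FPKM in wild type at 8 and 2 months. The T cell markers summed to 1444 and 1602 FPKM in knockout at 8 and 2 months, against 1447 and 1644 FPKM in wild type at 8 and 2 months. Unlike the CPM, these FPKM are relative to the library total without TMM scaling. They therefore serve to compare the marker sums within a library, and differences between libraries are not those of the scaled CPM. In wild type at 8 months the B cell marker sum per length stood above that of the labelled cell type, and in the other 3 libraries below it. In such bulk libraries fewer cells of a type and less RNA per cell cannot be told apart.

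Myeloid RNA was highest in wild type at 8 months: neutrophil markers summed to 6.12 and 0.406 CPM in knockout at 8 and 2 months, against 103.7 and 1.55 CPM in wild type at 8 and 2 months. Monocyte and macrophage markers summed to 34.8 and 20.5 CPM in knockout at 8 and 2 months, against 116.1 and 29.8 CPM in wild type at 8 and 2 months. Plasma cell markers had a median of -0.64 at 8 months and mast cell and basophil markers -1.27. Dendritic cell markers had 0.52, NK cell markers 2.03, erythroid markers 0.59 and platelet markers 0.21. These are medians of 4, 4, 2 and 3 genes at low levels. The dendritic genes ran from -3.12 (Xcr1) to 0.94 (Itgax), and the platelet genes from -0.24 (Itga2b) to 1.25 (Ppbp). In CPM, NK cell markers summed to 16.3 and 21.4 in knockout and to 5.36 and 34.4 in wild type, at 8 and 2 months. The NK gene Ncr1, too low for the median, had 4 counts in knockout and 8 in wild type at 8 months. Xist, the RNA of the inactive X chromosome, stood at 436.6 CPM in wild type at 2 months and below 1 CPM in the other libraries, so both comparisons with that library also compare sexes as read from this RNA. The same library is also part of the additive tests of genotype and age, and of each fit that leaves out another library. The comparison of genotypes at 8 months does not involve it.

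Gene length and GC share went with the ratios among the 42 genes. The 14 shortest genes had the lowest median at both ages. Across the 42 genes, which share the same 2 libraries, the Spearman correlation of length with the knockout over wild type fold was 0.43 at 8 months and 0.61 at 2 months, against 0.30 and 0.37 over all genes. GC share had -0.30 and -0.69, against -0.08 and -0.35 over all genes. The 14 shortest of the 42, from Nhp2 (1042 bases) to Nob1 (2137 bases), had a median of -0.96 at 8 months and -0.22 at 2 months. The middle 14 had -0.55 and 0.02, and the 14 longest, from Nolc1 (3634 bases) to Wdr12 (10012 bases), had -0.65 and 0.09, so the order at 8 months was not a steady one. With the trend of all genes on length and GC share taken off, the medians over the 42 were -0.75 at 8 months and -0.01 at 2 months. Polr1a then stood at -0.25, on the other side of 0, and Tsr1 at 0.10 at 8 months, and at 8 months the shortest, middle and longest genes had medians of -0.81, -0.49 and -0.90.

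**Figure D5:**
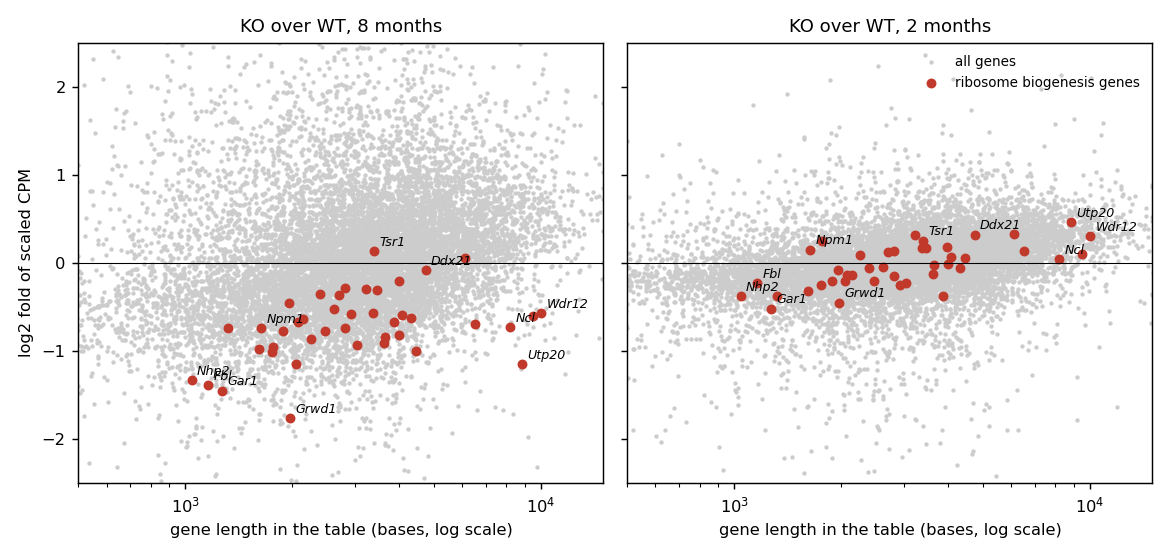
Log2 fold of scaled CPM, knockout over wild type (y axis), against gene length in bases (x axis, log scale) at 8 months (left) and 2 months (right), for the 42 genes (red) and all genes (grey). Genes outside the axis limits are not drawn. The shortest genes lie low in both panels, and at 8 months the 42 genes lie below most grey points along the whole length axis.

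Antisense neighbours limit some values. Without strand information, reads of a gene and of a partner on the other strand cannot be told apart, and 7 of the 42 overlap a partner whose counts come to 50% or more of their own: Bysl with Ccnd3, Rrp9 with Parp3, Bop1 with Mroh1, Nop56 with Idh3b, Dkc1 with Mpp1, Gnl3 with Glt8d1 and Nhp2 with Rmnd5b. For Bysl, Rrp9, Bop1, Nop56 and Dkc1 the partner had more counts than the gene itself, from 971% for Bysl to 108% for Dkc1. The other 35 genes had medians of -0.64 and 0.04 for knockout over wild type at 8 and 2 months.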

How the data were processed

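Total RNA of 4 libraries, 1 per group as given by the labels, was sequenced. CASAVA, STAR, GRCm38 and mm10 are named, with no role, in the submitters' processing notes. Counting tool, annotation, strand setting and the authors' test were not given in the sources used here. Per the file headers, the deposited table holds counts of reads per gene, FPKM and gene length. The deposited FPKM equal count per length and library total within 1e-06 and were used to order levels. The authors' deposited log2 ratios and the authors' deposited p-values, adjusted by them, were used only where quoted.

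From the counts, edgeR 4.0.16 (R 4.3.3) fitted genotype and age as additive terms by quasi-likelihood with TMM scaling after filterByExpr (13906 genes, 1 residual and 15.4 prior degrees of freedom, biological coefficient of variation 0.267), with Benjamini-Hochberg adjustment over all tested genes at 0.05. P-values measure spread between these libraries only. Single-library log2 folds used scaled CPM, a prior count of 2 and the 12131 genes that reached 2 CPM in any library, with exact Clopper-Pearson 95% counting intervals (scipy 1.17.1) and no test. At low counts the prior count draws a fold towards 0. Precision for counting error follows depths of 18145555 to 24239344 counts. Alternatives were median-of-ratios and upper-quartile factors, library size alone, other filters, DESeq2 1.42.0, limma-voom (limma 3.58.1), length and GC trends (mgcv 1.9.3), prior counts of 0.5 and 10, the model without the other factor, and each library left out. Scripts were tested on simulated data. Coordinates are those of the deposited table, of which 24 of 42 match GENCODE M21 exactly.

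All 42 genes, the deleted gene, the highest and lowest gene of each pathway list and the first gene of marker lists were to be named; other genes named were chosen after their values were seen. The genes, the pathway and marker lists and the tests were chosen with earlier results of these data known.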

Additional observations from a re-analysis of the deposited data

Results flagged for a closer look

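For 25 of the 42 genes the log2 fold ran in opposite directions in the compared arms, with both counting intervals clear of 0, against 25.6% of all genes. With 1 library in a group the difference was not tested. For 11 genes knockout was below wild type at 8 months and above it at 2 months, against 7.9% of all genes. Their log2 fold at 8 months minus that at 2 months was -1.61 for Utp20, -1.20 for Ltv1, -0.89 for Npm1, -0.88 for Dkc1, -0.87 for Wdr12, -0.82 for Heatr1, -0.77 for Ncl, -0.74 for Ddx10, -0.62 for Wdr75, -0.48 for Wdr43 and -0.40 for Ddx21. The opposed signs ended for Ncl with upper-quartile scaling, for Ddx21 with library size alone, and for Heatr1, Ncl and Wdr12 with the length and GC trend taken off. For 19 genes, 5 of them among the 11, 8 months was below 2 months in knockout and above it in wild type, against 8.75% of all genes. The same difference was -1.16 for Fbl, -1.05 for Mybbp1a, -0.96 for Ddx18, -0.94 for Rrs1, -0.81 for Polr1b, -0.76 for Nop16, -0.70 for Nip7, -0.69 for Nop58, -0.66 for Utp15, -0.65 for Rrp9, -0.56 for Bop1, -0.50 for Nob1, -0.49 for Nop14 and -0.47 for Nop2. With library size alone the age folds of Nop14 and Ddx21 in knockout were above 0.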

How the results depend on the processing

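The main limit is that each group has 1 library, so the values above describe these 4 libraries, and depth limits the single ratios far less than that. No paired analysis was possible because each group holds 1 library and the labels carry no replicate numbers. With library size alone the median over the 42 genes was -0.47 for knockout over wild type at 8 months (4 genes at least 2-fold lower) and -0.26 for 8 over 2 months in knockout (1 gene at least 2-fold lower), while the medians of all genes moved to 0.24 and 0.23. Upper-quartile scaling left 1 gene at least 2-fold lower with age in knockout. Shares of all genes at that cut were counted with TMM scaling only, 6.46% for genotype at 8 months and 4.58% for age in knockout. The counts under the other scalings therefore have no like share to be read against. Among folds whose counting interval was clear of 0, library size alone turned the sign of Ddx21 at 8 months (0.17) and, with age in knockout, of Myc (0.05), Ddx21 (0.09), Nop14 (0.11), Ddx56 (0.01) and Noc2l (0.13), and upper-quartile scaling that of Ncl at 2 months (-0.01). The length and GC trend turned those of Ncl (-0.28), Heatr1 (-0.08), Wdr12 (-0.08) and Noc4l (0.04) at 2 months. Of 168 single-gene folds, 74, 15 and 3 moved beyond their counting interval without changing sign under library size alone, upper-quartile and median-of-ratios scaling. Under library size alone Noc3l at 8 months (0.03) and Rrp12 with age in knockout (0.12) moved beyond their intervals and changed sign. So did Myc (0.08), Nop58 (-0.27), Nob1 (0.02), Nop2 (0.09) and Ddx56 (0.11) at 2 months under the length and GC trend, and Polr1a (-0.25) at 8 months. Moves without a sign change were not tallied for that trend. At 8 months it took Ncl from -0.73 to -1.20, Wdr12 from -0.57 to -1.13 and Fbl from -1.39 to -1.12, each beyond its interval. Prior counts of 0.5 and 10, the length and GC trend and leaving out the 7 overlapping genes kept every 2-fold count within 1.5 times. Leaving out those genes was a choice made after seeing the data. These settings kept every median of the whole set within 0.14, the size of a single gene's counting half-width and not a counting error of the median. Medians of some roles moved more under that trend, at 8 months from -1.33 to -1.06 for box H/ACA and from -0.91 to -1.12 for box C/D.

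Genotype called 1 of the 42 with no filter, and from 0 to 6 with each library left out, the 6 without knockout at 2 months. Age called from 0 to 20, the 20 without wild type at 8 months. Each such fit leaves 1 arm with a single library, assumed to vary like the others. The cause was not tested. Over all genes, higher and lower genotype calls were 1 and 3, and became 76 and 59 with no filter, 69 and 32 at a mean of 5 CPM, 8 and 10 by DESeq2, 5 and 7 by limma-voom, and 0 and 0 with library size alone or without the other factor. Leaving out knockout at 2 months gave 146 and 326, leaving out knockout at 8 months 0 and 0, leaving out wild type at 8 months 1 and 1, and leaving out wild type at 2 months 47 and 67. Age calls were 27 and 5, and became 106 and 93, 68 and 58, 45 and 15, 44 and 11, 0 and 0, and 0 and 0 in that order, and 16 and 4 with median-of-ratios factors. Leaving out knockout at 8 months gave 401 and 315, leaving out knockout at 2 months 0 and 2, leaving out wild type at 8 months 1719 and 1728, and leaving out wild type at 2 months 0 and 0.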

Other observations

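Genes around MYC and p53 had mixed values. The MYC network had 6 of 11 genes below 0 for knockout over wild type at 8 months (median -0.20, or 0.04 with library size alone), from Mxd3, an antagonist of MYC in dividing cells, at -1.23 to Mycn at 1.45, which rests on 46 counts in knockout and 14 counts in wild type at 8 months. Mxd3 measured 16.6 and 48.7 CPM in knockout at 8 and 2 months, against 39.0 and 51.6 CPM in wild type at 8 and 2 months. The list of p53 and nucleolar stress genes had 7 of 13 below 0 (median -0.05, or 0.20 with library size alone and 0.01 with upper-quartile scaling). The shares of both lists below 0 were near that of all genes, 50.2%. Trp53 measured 75.7 and 136.3 CPM in knockout at 8 and 2 months, against 148.6 and 137.8 CPM in wild type at 8 and 2 months, with a log2 fold at 8 months of -0.97 (-1.06 to -0.89). Mdm4, which restrains p53, measured 416.9 and 185.2 CPM in knockout at 8 and 2 months, against 230.0 and 212.6 CPM in wild type at 8 and 2 months. No gene of either list passed the additive test (edgeR quasi-likelihood). Of 26 tested, 1 had an unadjusted edgeR p under 0.05 for genotype and 4 for age, against 8.36% and 8.22% of all genes. DESeq2 and limma-voom called 0 too, with 0 and 2 at an unadjusted p under 0.05 for genotype and 5 and 5 for age. Over all genes the shares were 5.94% and 9.79% for genotype and 5.84% and 9.13% for age.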
